A study of Rattus norvegicus with 45 samples.

Results

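Oprm1, Oprk1 and Penk, 3 of the 32883 genes with deposited values, were followed in the ventral tegmental area (VTA) of 44 rats. They were taken by identifier (Oprm1 ENSRNOG00000018191, Oprk1 ENSRNOG00000007647, Penk ENSRNOG00000008943), and all 3 were above the lowest deposited value in every rat and belonged to the 22570 genes tested. The rats were male wild-type Sprague-Dawley animals whose age was not given. They self-administered saline or heroin for 10 d, received a virus into the VTA on day 11 and spent 30 d in abstinence. The empty vector expressed GFP only, H3.3 WT is the wildtype histone variant H3.3, and H3.3Q5A carries alanine in place of glutamine 5, the residue to which dopamine can be attached. All vectors, empty included, carried GFP, and its fluorescence guided the tissue punches to virus-infected VTA in every group. The share of infected cells in a punch was not given. The vectors are AAV2 in the methods and lentiviral in the deposited design text, and no promoter was named. Each vector was given to 7 saline rats, and to 8 heroin rats for empty, 7 for H3.3 WT and 8 for H3.3Q5A. Every rat gave a library of its own from polyA RNA, and samples were not pooled. A further saline library, whose title and treatment name different vectors, stood in no group.

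Heroin acts through its metabolites on the mu opioid receptor, encoded by Oprm1. In the VTA this inhibitory receptor is best known from GABA neurons, whose silencing releases dopamine neurons from inhibition. The kappa opioid receptor, encoded by Oprk1, is the receptor of dynorphin peptides and restrains dopamine neurons and dopamine release. Penk encodes proenkephalin, the precursor that is cut into enkephalins, peptides which act on delta and mu receptors. Histone dopaminylation is the attachment of dopamine to glutamine 5 of histone H3, and the study asked what its loss through H3.3Q5A does to gene expression after heroin.

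Values are counts after a variance-stabilizing transformation, close to log2 of the normalized count for all but the lowest genes. They are called deposited values here, and differences between groups are log2 differences of these values. The reads on genes ranged from 24308953 to 71104049 per rat with a median of 42574786, and the group medians ran from 34513499 in saline H3.3Q5A to 55197003 in saline empty rats. Oprm1 had 214 to 864 reads per rat, Oprk1 376 to 1129 and Penk 1127 to 11596. Among the tested genes, the mean value stood at percentile 55.8 for Oprm1, 60.4 for Oprk1 and 90.1 for Penk, on a scale not corrected for gene length. In Penk, saline H3.3Q5A rat 28 and heroin H3.3Q5A rat 21 stood apart from their groups, and results that rest on them are given with and without them. A difference was called when limma's moderated test, fitted over all 6 groups and all tested genes, gave a Benjamini-Hochberg adjusted p under 0.05 with a log2 difference beyond 0.2. In bulk tissue, fewer cells of a type and less RNA per cell cannot be told apart. No dopamine or GABA neuron marker could be looked up by name, so the tissue label was not checked against them.

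Penk was the member with the widest range and the only one of the 3 called in an interaction of heroin and vector. Its mean was lower in heroin than in saline rats with the control vectors, and higher in heroin than in saline rats with H3.3Q5A. In saline empty rats Penk ran from 11.58 through a median of 12.74 to 12.96, with a mean of 12.52 ± 0.496 (SD, n = 7). With H3.3 WT, saline rats ran from 11.03 through 12.49 to 13.22, with a mean of 12.37 ± 0.696 (SD, n = 7). With H3.3Q5A, saline rats ran from 10.86 through 12.04 to 12.43, with a mean of 11.93 ± 0.501 (SD, n = 7). Each saline group had 1 rat well below its median, rat 18 with empty, rat 8 with H3.3 WT and rat 28 with H3.3Q5A. Heroin empty rats had values from 10.92 through a median of 11.63 to 12.68 and a mean of 11.70 ± 0.664 (SD, n = 8). Heroin H3.3 WT rats lay between 11.23 and 12.22 with a median of 11.45 and a mean of 11.58 ± 0.340 (SD, n = 7). Heroin H3.3Q5A rats lay between 11.42 and 13.03 with a median of 12.70 and a mean of 12.55 ± 0.501 (SD, n = 8). The single low heroin H3.3Q5A animal was rat 21, and the other rats of this group were at 12.39 or above. As size-factor normalized counts, the saline and heroin medians were 6744 and 3073 with empty, 5644 and 2689.8 with H3.3 WT, and 4119 and 6569.5 with H3.3Q5A. Every pair of groups overlapped, as the plot of values by rat shows.

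**Figure D1:**
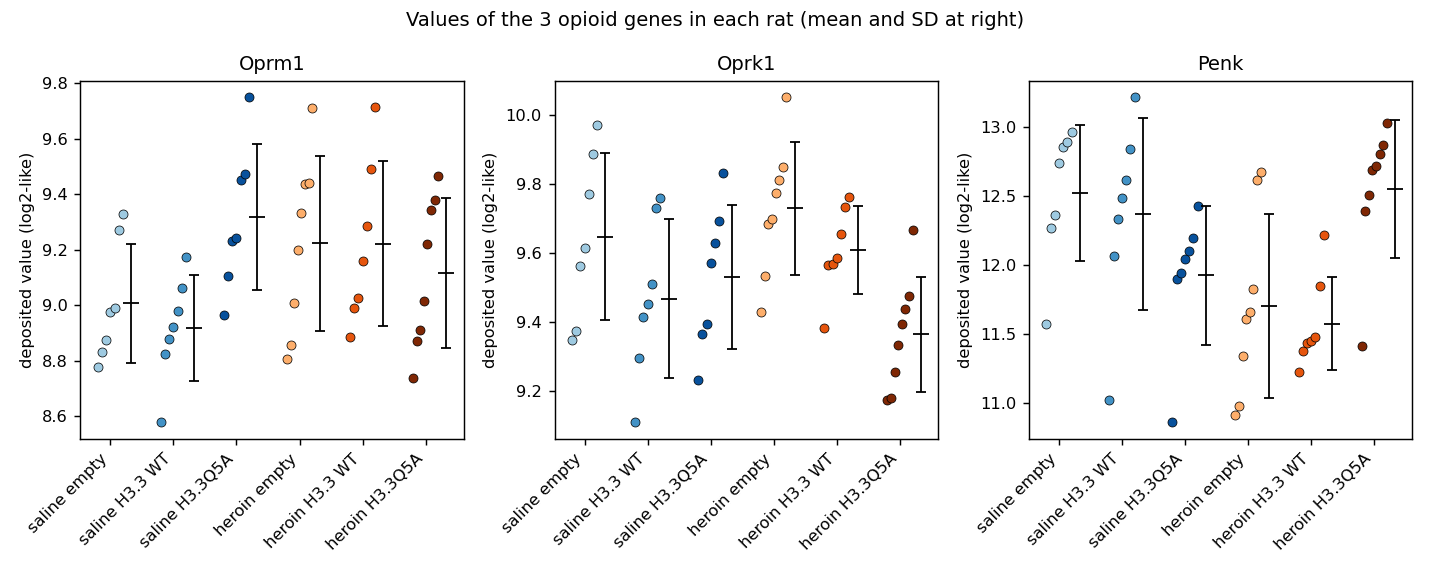
Deposited value (log2-like, vertical axis with its own range in each panel) of Oprm1, Oprk1 and Penk in each of 44 rats (points) of the 6 groups, with the group mean and SD at the right of each group. Penk sits at 12.39 to 13.03 in 7 of 8 heroin H3.3Q5A rats and at 11.23 to 12.22 in heroin H3.3 WT rats, and Oprk1 has its lowest group mean, 9.36, in heroin H3.3Q5A rats.

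Heroin vs. saline was compared within each vector to ask what heroin leaves in the VTA after abstinence. In empty rats Penk differed by -0.82 (standard error 0.271, 95% interval -1.36 to -0.27, adjusted p = 0.103 by limma), and 6 of 8 animals of the heroin group lay below the mean of saline. In H3.3 WT rats the difference was -0.79 (standard error 0.279, 95% interval -1.36 to -0.23, adjusted p = 0.126 by limma), and here 7 of 7 lay below. Neither passed the threshold alone, where 0.155% and 2.75% of all tested genes were called. With 1 or 3 residual factors in the fit, which stand in for the technical factors the study's own tests used, both differences were called with the same size (lowest adjusted p = 0.000151 and 0.000481 by limma). Such factors leave group differences as they are and narrow their errors. With 3 of them the calls among all tested genes rose from 35 to 2322 and from 620 to 1862. The gained calls are therefore not separate support for these differences. The mean of both heroin effects was -0.81 (standard error 0.194, adjusted p = 0.00547 by limma), a level 0.572-fold that of saline. This comparison was added after the data were examined, and Penk was called in it along with 6.65% of the tested genes. Averaged over both control vectors, Penk was lower after heroin, and this call held in 29 of 29 fits that each left out 1 rat. In H3.3Q5A rats the difference was 0.63 (standard error 0.271, 95% interval 0.08 to 1.17, adjusted p = 0.185 by limma), where 7 of 8 lay above the mean of saline, and 0.505% of the tested genes were called. This difference too was called with 1 or 3 residual factors (adjusted p = 0.00947 and 0.00319 by limma), under the same limit. With 3 factors the calls among all tested genes rose from 114 to 2412 there. The Penk difference in H3.3Q5A rats was 0.45 without saline rat 28 and 0.79 without heroin rat 21 (adjusted p = 0.408 and 0.0567 by limma).

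The interaction asks whether the response to heroin itself differed between vectors. For Penk the heroin effect with H3.3Q5A exceeded that with empty by 1.45 (standard error 0.383, 95% interval 0.67 to 2.22, adjusted p = 0.00931 by limma), a 2.72-fold difference of responses. It exceeded that with H3.3 WT by 1.42 (standard error 0.389, 95% interval 0.63 to 2.20, adjusted p = 0.0173 by limma), a 2.68-fold difference. Both were called, in contrasts that called 14% and 7.93% of the tested genes, and they share the H3.3Q5A rats. Without saline rat 28 they were 1.27 and 1.24 (adjusted p = 0.0222 and 0.0377 by limma), and without heroin rat 21 they were 1.61 and 1.58 (adjusted p = 0.00194 and 0.00379 by limma). Between the control vectors the heroin effects on Penk differed by 0.03 (95% interval -0.76 to 0.81, adjusted p = 0.994 by limma). In that contrast 0% of the tested genes were called by limma, with 1137 genes at an unadjusted p under 0.05.

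Within heroin rats, Penk was higher with H3.3Q5A than with H3.3 WT by 0.98 (standard error 0.271, 95% interval 0.43 to 1.52, adjusted p = 0.0374 by limma), a 1.97-fold difference, with 7 of 8 H3.3Q5A rats above the H3.3 WT mean. This call stood beside 2.71% of the tested genes. Against heroin empty the difference was 0.85 (standard error 0.261, 95% interval 0.32 to 1.38, adjusted p = 0.0534 by limma), which missed the threshold, with 7 of 8 rats above the empty mean and 3.21% of the tested genes called. It passed with median centring, residual factors or array weights. Without rat 21 the differences were 1.14 and 1.01 (adjusted p = 0.00587 and 0.0109 by limma). Against the mean of both heroin control groups, the other added comparison, Penk was higher by 0.91 (standard error 0.229, adjusted p = 0.0117 by limma), a 1.88-fold difference, where 5.84% of the tested genes were called. Without rat 21 it was 1.07 (adjusted p = 0.00144 by limma). The comparison with H3.3 WT was called in only 5 of 15 fits that left out 1 rat, with the highest adjusted p, 0.104, without heroin H3.3 WT rat 11. It was also lost without the gene filter, with only the groups compared in the fit, and with the read total as a covariate.

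Within saline rats no Penk difference was called in the fit without factors. H3.3Q5A rats were below empty rats by 0.60 on the log2 scale in the mean (difference -0.60, 95% interval -1.16 to -0.03, adjusted p = 0.185 by limma), with 7 of 7 below the empty mean, in a contrast that called 4.94% of the tested genes. Without rat 28 that difference was -0.42 (adjusted p = 0.419 by limma), and with 1 or 3 residual factors or array weights it was called. Against saline H3.3 WT it was -0.44 (95% interval -1.01 to 0.12, adjusted p = 0.570 by limma), where 0.00886% of the tested genes, 2 in number, were called. It was -0.27 without saline H3.3Q5A rat 28 and -0.67 without saline H3.3 WT rat 8 (adjusted p = 0.796 and 0.289 by limma). H3.3 WT against empty gave -0.13 in heroin rats (95% interval -0.67 to 0.42) and -0.15 in saline rats (95% interval -0.72 to 0.41). Those contrasts called 0% of the tested genes each by limma, with 1277 and 3788 genes at an unadjusted p under 0.05.

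**Figure D2:**
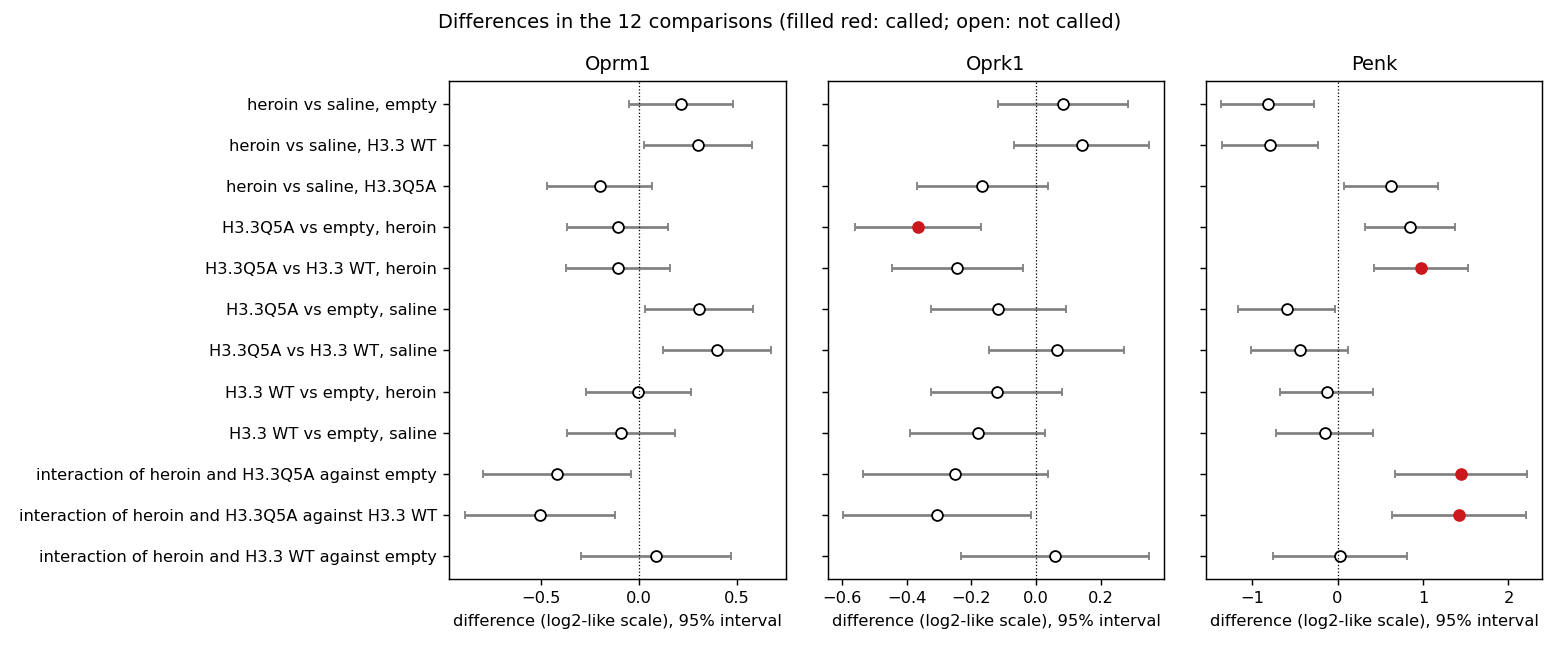
Log2 differences of the deposited values (points, horizontal axis with its own range in each panel) with 95% intervals for Oprm1, Oprk1 and Penk in the 12 planned comparisons, filled red where called. The calls are Penk in both interactions of heroin and H3.3Q5A and in H3.3Q5A vs. H3.3 WT in heroin rats, and Oprk1 in H3.3Q5A vs. empty in heroin rats.

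Markers of oligodendrocytes, the myelin-forming cells, moved opposite to Penk. Of 6 markers reported here, 4 could be looked up by name (Mbp, Mobp, Mag and Cldn11). Names were readable only for genes that rank high in one of the authors' own comparisons of these rats, so these markers are not an independent choice. The log2 of their summed normalized counts ranged from 18.23 to 19.44 in saline and 18.44 to 19.61 in heroin rats with empty, from 18.24 to 19.51 and 18.78 to 19.86 with H3.3 WT, and from 18.97 to 19.62 and 17.99 to 19.31 with H3.3Q5A. All 4 were higher with heroin in empty rats (median difference 0.51) and in H3.3 WT rats (0.22), and all 4 were lower with heroin in H3.3Q5A rats (-0.61), with none called. Their interaction had a median of -1.11 for H3.3Q5A against empty with all 4 called lower, and of -0.82 against H3.3 WT with 2 called lower. Those contrasts called 14% and 7.93% of the tested genes. Within heroin rats the medians for H3.3Q5A were -0.41 against empty and -0.57 against H3.3 WT, with none called. In the 2 added comparisons some markers were called, as Penk was. For the mean heroin effect over the control vectors the median was 0.36, with 1 called higher (Mobp), where 6.65% of the tested genes were called. For heroin H3.3Q5A against the mean of the heroin controls the median was -0.49, with 2 called lower (Mbp and Mobp), where 5.84% were. In saline rats with H3.3Q5A against empty the median was 0.70 and all 4 markers were called higher, where 4.94% of the tested genes were called. All 4 were also higher with H3.3 WT than with empty in saline rats (median 0.46), with none called. Between saline H3.3Q5A and saline H3.3 WT rats the median was 0.25, with none called.

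Across the 44 rats, after subtraction of group means, Penk and the oligodendrocyte sum had a Pearson r of -0.65 (permutation p = 3e-05 within groups, adjusted p = 0.00018 over 6 relations) and a Spearman rho of -0.50 (permutation p = 0.00145, adjusted p = 0.0087). The r was -0.58 without the 2 rats farthest from the median sum, and it was negative in 6 of 6 groups, from -0.84 to -0.04. In 5 of 6 groups the rat with the lowest Penk had the highest oligodendrocyte sum, rats 28 and 21 among them, and heroin empty was the exception. The part of oligodendrocyte content in the Penk differences was not tested. Cx3cr1, the only microglia marker with a name, had group means between 10.05 and 10.54. Col1a1 and Slc6a20, expressed in the meninges, had the direction of Penk between saline and heroin means in each vector. Saline and heroin means of Col1a1 were 10.70 and 10.04 with empty, 11.58 and 9.67 with H3.3 WT, and 10.31 and 11.22 with H3.3Q5A. Those of Slc6a20, in the same order, were 10.08 and 9.21, 10.84 and 9.17, and 9.79 and 10.66. The part of these genes was not tested either. The pituitary hormone genes Cga and Tshb also had lower means with heroin in both control vectors and higher means with heroin in H3.3Q5A rats. For Cga the saline and heroin means were 8.71 and 6.94 with empty, 8.27 and 6.07 with H3.3 WT, and 7.02 and 7.95 with H3.3Q5A. Cga varied widely, with an SD of 2.33 in saline empty rats, and the part of both genes was not tested.

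**Figure D3:**
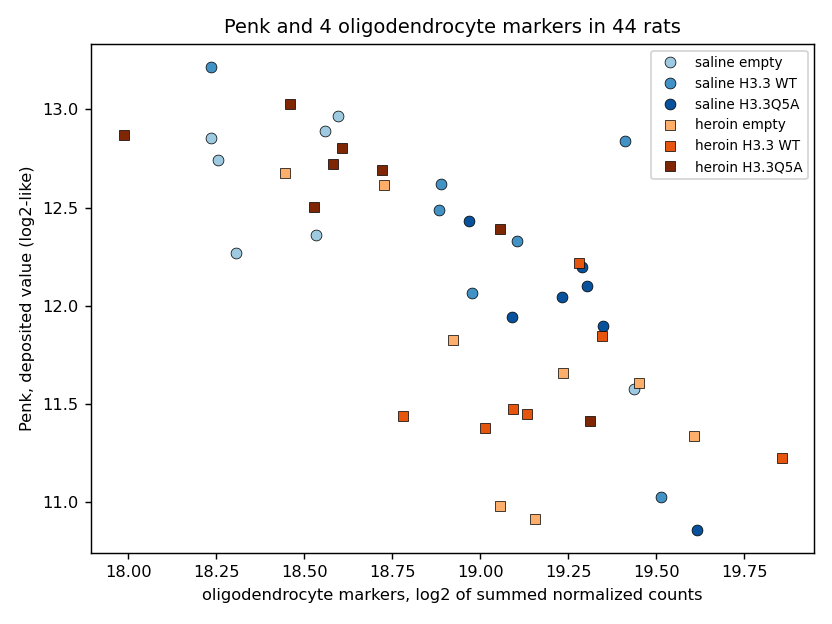
Deposited value of Penk (vertical axis, log2-like) against the log2 of the summed normalized counts of 4 oligodendrocyte markers (horizontal axis) in 44 rats, with circles for saline and squares for heroin groups. Rats with more oligodendrocyte transcripts had less Penk, with an r of -0.65 after subtraction of group means.

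Oprk1, the kappa receptor gene, had its lowest group mean in heroin H3.3Q5A rats. There it ran from 9.17 through a median of 9.36 to 9.67, with a mean of 9.36 ± 0.166 (SD, n = 8). Heroin empty rats ran from 9.43 through 9.74 to 10.05 with a mean of 9.73 ± 0.193 (SD, n = 8), and heroin H3.3 WT rats from 9.38 through 9.59 to 9.76 with a mean of 9.61 ± 0.128 (SD, n = 7). The heroin groups overlapped: 4 of 8 H3.3Q5A rats lay inside the range of H3.3 WT and 3 of 8 inside that of empty, and the ranges of the control groups overlapped over most of their length. The difference to heroin empty was -0.37 (standard error 0.0966, 95% interval -0.56 to -0.17, adjusted p = 0.0271 by limma), so Oprk1 was lower at a level 0.776-fold that of empty, with 8 of 8 H3.3Q5A rats below the empty mean. It was called in 9 of 16 fits that left out 1 rat, with the highest adjusted p, 0.0757, without heroin empty rat 14. The call was also lost with only the groups compared in the fit and with the read total as a covariate. Against heroin H3.3 WT the difference was -0.24 (95% interval -0.45 to -0.04, adjusted p = 0.178 by limma), with 7 of 8 rats below the H3.3 WT mean. Against the mean of both heroin control groups it was -0.30 (standard error 0.0847, adjusted p = 0.0215 by limma). That contrast was not among the 12 planned ones, and 5.84% of the tested genes were called in it. In the contrast with heroin empty, 3.21% of the tested genes were called.

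In saline rats Oprk1 ran from 9.35 to 9.97 with empty (mean 9.65 ± 0.243, SD, n = 7), from 9.11 to 9.76 with H3.3 WT (9.47 ± 0.230, SD, n = 7) and from 9.23 to 9.83 with H3.3Q5A (9.53 ± 0.210, SD, n = 7). The saline groups overlapped over most of their ranges. H3.3Q5A differed from empty by -0.12 (95% interval -0.32 to 0.09) and from H3.3 WT by 0.06 (95% interval -0.15 to 0.27), and H3.3 WT differed from empty by -0.18 (95% interval -0.39 to 0.03). Heroin vs. saline gave 0.08 in empty rats (95% interval -0.12 to 0.28), 0.14 in H3.3 WT rats (95% interval -0.07 to 0.35) and -0.17 in H3.3Q5A rats (95% interval -0.37 to 0.04), none of them called. Its interaction for H3.3Q5A was -0.25 against empty (95% interval -0.53 to 0.04, adjusted p = 0.248 by limma) and -0.31 against H3.3 WT (95% interval -0.60 to -0.02, adjusted p = 0.204 by limma). The lower Oprk1 of heroin H3.3Q5A rats was therefore not shown to differ from the effect of H3.3Q5A in saline rats.

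Oprm1, the mu receptor gene, was called in none of the 12 planned and 2 added comparisons. Its values ran from 8.78 through a median of 8.98 to 9.33 in saline empty rats (mean 9.01 ± 0.215, SD, n = 7) and from 8.58 through 8.92 to 9.18 in saline H3.3 WT rats (8.92 ± 0.190, SD, n = 7). Saline H3.3Q5A rats had the highest group mean, 9.32 ± 0.263 (SD, n = 7), and ran from 8.96 through 9.24 to 9.75. In heroin rats the range was 8.81 to 9.71 with empty (median 9.26, mean 9.22 ± 0.315, SD, n = 8), 8.88 to 9.71 with H3.3 WT (median 9.16, mean 9.22 ± 0.297, SD, n = 7) and 8.74 to 9.46 with H3.3Q5A (median 9.12, mean 9.12 ± 0.270, SD, n = 8). All 6 ranges overlapped, and the heroin groups covered nearly the same values.

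The Oprm1 difference with the lowest unadjusted p was that between saline H3.3Q5A and saline H3.3 WT rats, 0.40 (standard error 0.137, 95% interval 0.12 to 0.68, adjusted p = 0.179 by limma), with 7 of 7 H3.3Q5A rats above the H3.3 WT mean. Against saline empty it was 0.31 (95% interval 0.03 to 0.59, adjusted p = 0.157 by limma). Heroin vs. saline gave 0.22 in empty rats (95% interval -0.05 to 0.48, adjusted p = 0.397 by limma), 0.30 in H3.3 WT rats (95% interval 0.03 to 0.58, adjusted p = 0.260 by limma) and -0.20 in H3.3Q5A rats (95% interval -0.47 to 0.07, adjusted p = 0.413 by limma). The signs were those of Oprk1 and opposite to those of Penk in each vector. Its interaction for H3.3Q5A was -0.42 against empty (95% interval -0.79 to -0.04, adjusted p = 0.128 by limma) and -0.50 against H3.3 WT (95% interval -0.89 to -0.12, adjusted p = 0.0943 by limma). The mean heroin effect over the control vectors was 0.26 (standard error 0.0951, adjusted p = 0.0675 by limma). Within heroin rats H3.3Q5A differed by -0.11 from empty (95% interval -0.36 to 0.15) and by -0.10 from H3.3 WT (95% interval -0.37 to 0.16). These were -0.04 without heroin empty rat 2 and -0.02 without heroin H3.3 WT rat 9, respectively. Median centring and 3 residual factors each brought both interactions and the mean heroin effect past the threshold, with the same signs.

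In the order of the group means, no neighbors differed by more than the smaller of their SDs for any of the 3 genes. Penk ran from heroin H3.3Q5A rats at the top through the saline groups, in the order empty, H3.3 WT and H3.3Q5A, to heroin empty and last heroin H3.3 WT rats. Oprk1 ran from heroin empty to heroin H3.3Q5A at the lower end, and Oprm1 from saline H3.3Q5A to saline H3.3 WT. From rat to rat within groups, Oprm1 and Penk had a Pearson r of 0.41 (permutation p = 0.00908, adjusted p = 0.0272 over 6 relations) but a Spearman rho of 0.26 (permutation p = 0.107, adjusted p = 0.161), and r was 0.38 without the 2 rats farthest from the median of Oprm1. For Oprk1 and Penk, r was -0.39 (permutation p = 0.0179, adjusted p = 0.0341) and rho -0.39 (permutation p = 0.0160, adjusted p = 0.0356), with r at -0.39 without the 2 farthest rats and negative in 4 of 6 groups. The receptors had an r of 0.11 with each other (permutation p = 0.465, adjusted p = 0.465), a rho of 0.12 (permutation p = 0.455, adjusted p = 0.455) and an r of 0.12 without the 2 farthest rats. With the oligodendrocyte sum, Oprm1 had an r of -0.36 (permutation p = 0.0227, adjusted p = 0.0341), a rho of -0.38 (permutation p = 0.0178, adjusted p = 0.0356) and an r of -0.36 without the 2 farthest rats. Oprk1 had an r of 0.22 with that sum (permutation p = 0.183, adjusted p = 0.219), a rho of 0.19 (permutation p = 0.236, adjusted p = 0.283) and an r of 0.12 without the 2 farthest rats. These relations are between libraries of 1 tissue punch each, and what the libraries share in dissection was not tested.

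Of 55 other genes of the opioid system in 3 lists, 6 could be looked up by name, under the same limit as the markers. These were 0 of 6 peptides and receptors, 4 of 16 genes of propeptide processing and peptide breakdown (Pcsk2, Anpep, Dpp3 and Ece2) and 2 of 33 genes of receptor signaling (Gng2 and Adcy5). Prodynorphin, the kappa receptor's ligand precursor, and the delta receptor were not among them and are not analysed here. In the interaction for H3.3Q5A against empty, 1 of the 6 was called lower (Dpp3) and 1 higher (Gng2), in a contrast that called 14% of all tested genes, with a list median of 0.13 beside 0.02 over all of them. In saline H3.3Q5A vs. saline empty rats 1 was called higher and 2 lower, where 4.94% of all tested genes were called, with a list median of -0.05 beside -0.01. That count of 3 went to 0 without saline empty rat 15 or 22 or saline H3.3Q5A rat 28, and to 1 without saline empty rat 10, 13, 41 or 42 or saline H3.3Q5A rat 32, while the count in the interaction stayed at 2 with any 1 rat left out. In the other planned comparisons none of the 6 was called, and the list medians lay between -0.07 and 0.12, beside medians over all tested genes between -0.01 and 0.01.

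Dpp3, a peptidase that can break down enkephalins, had a pattern of signs opposite to that of Penk in empty and H3.3Q5A rats. Its group means were 10.43 ± 0.169 (SD, n = 7) in saline and 10.67 ± 0.119 (SD, n = 8) in heroin rats with empty, and 10.70 ± 0.0809 (SD, n = 7) and 10.50 ± 0.145 (SD, n = 8) with H3.3Q5A. Heroin vs. saline gave 0.24 in empty rats (adjusted p = 0.0607 by limma) and -0.20 in H3.3Q5A rats (adjusted p = 0.0830 by limma), neither called. The interaction against empty was called, at -0.44 (standard error 0.0923, adjusted p = 0.00211 by limma), and that against H3.3 WT, -0.25, was not (adjusted p = 0.0894 by limma). Saline H3.3Q5A rats had more Dpp3 than saline empty rats by 0.27 (adjusted p = 0.0204 by limma). Against saline H3.3 WT the Dpp3 difference was 0.09 and not called (adjusted p = 0.645 by limma). Saline H3.3 WT rats lay above saline empty rats by 0.18, also not called (adjusted p = 0.201 by limma).

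Gng2, a gamma subunit of the G proteins through which opioid receptors signal, had an interaction against empty of 0.41 (standard error 0.125, adjusted p = 0.0241 by limma) and of 0.25 against H3.3 WT, not called (adjusted p = 0.257 by limma). In saline rats Gng2 was lower with H3.3Q5A than with empty (difference -0.29, adjusted p = 0.0483 by limma). Against saline H3.3 WT the Gng2 difference was -0.09 and not called (adjusted p = 0.758 by limma). Saline H3.3 WT against empty gave -0.20 for Gng2, also not called (adjusted p = 0.258 by limma). Ece2, a peptide-processing metalloprotease, was lower with H3.3Q5A than with empty in saline rats (difference -0.24, adjusted p = 0.0471 by limma). Against saline H3.3 WT its difference was -0.06 and not called (adjusted p = 0.817 by limma). Pcsk2, a convertase that cuts proenkephalin, Anpep, an aminopeptidase of enkephalins, and Adcy5, an adenylyl cyclase, were called in no comparison. The Anpep difference between heroin and saline was 0.05 in empty, -0.42 in H3.3 WT and 0.17 in H3.3Q5A rats.

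**Figure D4:**
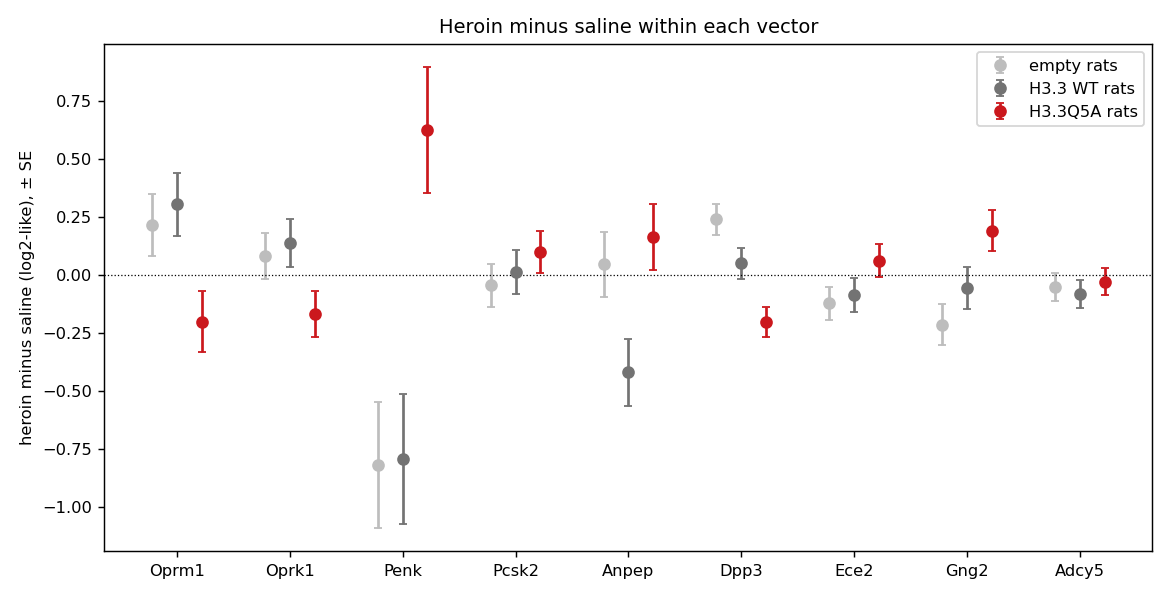
Heroin minus saline differences of the deposited values (vertical axis, log2-like, points with ± 1 standard error) for the 3 members and 6 other opioid system genes in empty, H3.3 WT and H3.3Q5A rats. Penk lies at -0.82 and -0.79 with the control vectors and at 0.63 with H3.3Q5A, and Dpp3 at 0.24 with empty and -0.20 with H3.3Q5A.

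The genes whose values were most like each member were ranked by Pearson r over the 44 rats, after subtraction of group means, among 11284 genes at or above the median level. The 44 libraries share depth and dissection across genes, so these are descriptions. For Penk the closest were ENSRNOG00000017893 with an r of 0.86 and ENSRNOG00000008644 with 0.84, neither paired with a name here, followed by Hap1, the huntingtin-associated protein 1 gene, with 0.83. Among 1764 of these genes with a name, Usp11 (0.82), Magel2 (0.81), Minar2 (0.80) and Fxyd6 (0.80) came after Hap1. ENSRNOG00000008644 was called in both interactions of heroin and H3.3Q5A, at 1.78 against empty and 1.69 against H3.3 WT (adjusted p = 0.0218 and 0.0467 by limma). Hap1 and Fxyd6 were called against empty only, at 0.86 and 0.83 (adjusted p = 0.0333 and 0.0367 by limma). So was ENSRNOG00000052062, also among the closest genes, at 0.48 (adjusted p = 0.00562 by limma). ENSRNOG00000017893, ENSRNOG00000061782, Usp11, Magel2 and Minar2, close to Penk as well, were called in neither. These interactions called 14% and 7.93% of the tested genes. For Oprm1 the highest r was 0.79, and among named genes it was 0.74 for AABR07064804.1, 0.71 for Lonrf2, 0.67 for Zbtb44, and 0.66 for both Galnt13 and Usp9x. For Oprk1 the highest r was 0.62, with Erlec1 (0.56), Rab21 (0.56), Ranbp6 (0.55), Arhgap12 (0.54) and Copg2 (0.53) first among named genes, so no gene followed Oprk1 as closely as Hap1 followed Penk.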

How the data were processed

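PolyA libraries of VTA punches from 45 rats were sequenced, and 44 were grouped by their labels. The authors aligned reads to rn6 (Rnor_6.0) with HISAT2 2.1.0, removed reads with several alignments, counted the rest with featureCounts 2.0.1 and normalized with DESeq2. The authors deposited the result of a variance-stabilizing transformation, in log2-like units, whose lowest value, 5.73, stands for 0 reads. The authors used RUVr factors in their tests, whose number is not given in the sources used here, and the deposited values fall on whole reads without any such factor. Undoing the transformation gave whole numbers (tolerance 0.1) for 100% of values, and so the reads per rat. For genes with few reads the scale understates changes, and the libraries do not mark strand, so reads of overlapping antisense genes cannot be told apart.

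With limma 3.58.1 in R 4.3.3, 1 model with an intensity trend was fitted over all 6 groups on 22570 genes, those exceeding the lowest value in 7 or more grouped libraries. The 12 planned comparisons set heroin against saline for each vector, each pair of vectors within saline or heroin, and the 3 interactions. Added after the data were examined were the heroin effect averaged over both control vectors, and heroin H3.3Q5A against the mean of the other heroin groups. Rat-to-rat relations used 100000 permutations within groups, two-sided. Alternatives were no gene filter, median centring, quantile normalization, 1 or 3 residual factors (leading axes of the residuals, as RUVr uses), array weights, a fit of the compared groups alone, the log2 read total as covariate, voom on the recovered reads, and each rat left out. No count model was run on the recovered reads other than voom. The scripts were tested on simulated data. In 140 pairs of libraries of the same group, 0 were identical and the lowest chi-square per gene was 11.1, so none was counted as a duplicate. Labels and headers name no batch.

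The members and lists were chosen with earlier results of these data known. The members' symbols came with their identifiers. Other names come from 1998 readable rows of a table of the study that is ordered by the adjusted p of one of its comparisons, from which no value was used. The histone genes H3f3a and H3f3b were looked for and not among them. Of the 13 marker lists, 4 had named genes, with 4 of 6 for oligodendrocytes, 1 of 5 for microglia, 2 of 5 for meninges and fibroblasts and 2 of 5 for pituitary. Some genes of the lists are not reported here. The rule for genes to be named was the members, the peptides and receptors, up to 6 called genes of the other opioid lists with the lowest adjusted p, the 5 closest genes of each member, and the histone genes. Pcsk2, Anpep, Adcy5 and the further named neighbors lie outside it and were added after their values were seen.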

Additional observations from a re-analysis of the deposited data

Results flagged for a closer look

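In Penk, the lowest rat stood far from the others of its group by Dixon's test in 2 of the 18 groups of rats and genes looked at, and chance gives about 0.9. Saline H3.3Q5A rat 28 was at 10.86, with the other rats of its group at 11.90 to 12.43. Heroin H3.3Q5A rat 21 was at 11.42, with the others at 12.39 to 13.03.

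By limma's test of the interaction, the response of Penk to heroin differed between H3.3Q5A and both control vectors, with a difference of responses of 1.45 against empty and 1.42 against H3.3 WT. The responses of Dpp3 and Gng2 differed from those with empty, by -0.44 and 0.41, and were not called against H3.3 WT (-0.25 and 0.25, adjusted p = 0.0894 and 0.257 by limma). The oligodendrocyte markers with a name had interactions between -1.19 and -0.99 against empty, and their part in these differences was not tested.

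In the saline library that no group holds, Oprm1 was at 9.87, above the highest grouped rat at 9.75.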

How the results depend on the processing

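Penk kept its direction under every setting that was run in the interactions of heroin and H3.3Q5A, in the mean heroin effect and in heroin H3.3Q5A against the heroin controls, and the interactions, the mean heroin effect and the comparison with the mean of the heroin controls kept their calls. Residual factors leave group differences as they are and narrow their errors. With 1 and 3 factors, calls were gained for Penk in heroin vs. saline with empty (-0.82, adjusted p = 0.000587 and 0.000151 by limma), H3.3 WT (-0.79, 0.00318 and 0.000481) and H3.3Q5A (0.63, 0.00947 and 0.00319), in H3.3Q5A vs. empty with heroin (0.85, 0.000362 and 5.0e-05) and with saline (-0.60, 0.0118 and 0.00538). Array weights gave -1.02 (0.00732) for heroin vs. saline with empty, 0.96 (0.00918) for H3.3Q5A vs. empty with heroin and -0.73 (0.0402) with saline, and median centring gave 0.77 (0.0383) for the comparison with heroin. The call of Penk with H3.3Q5A vs. H3.3 WT in the heroin groups was lost without the gene filter and with only the groups compared (0.98, adjusted p = 0.0722 and 0.0736 by limma), and with the read total as covariate (0.95, 0.0618), and the cause was not tested. The call of Oprk1 in H3.3Q5A vs. empty with heroin was lost with only the groups compared (-0.37, 0.0585) and with the read total (-0.31, 0.0770), which also ended the call against the mean of the heroin controls (-0.26, 0.0654).

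Oprm1 gained calls by limma with 3 factors in saline H3.3Q5A against empty (0.31, adjusted p = 0.0413) and H3.3 WT (0.40, 0.0175), and its interaction passed against empty with median centring (-0.54, 0.0392) and 3 factors (-0.42, 0.0390). Against H3.3 WT its interaction passed with median centring (-0.63, 0.0240), quantile normalization (-0.60, 0.0493), and 1 or 3 factors (-0.50, 0.0388 and 0.0172). Its mean heroin effect passed with the same settings (0.32, 0.30, and 0.26 with 1 or 3 factors, adjusted p = 0.0157, 0.0371, 0.0266 and 0.0112 by limma). Its difference of H3.3 WT to empty under heroin, near 0, turned to 0.028 with array weights and 0.0030 with the read total. Of the 6 named opioid system genes, the count called moved from 0 to 1 or 2 in heroin vs. saline with empty, to 1 with H3.3 WT and with H3.3Q5A, to 1 in both heroin H3.3Q5A contrasts and in both added comparisons, to 3 in saline H3.3 WT vs. empty and to 1 or 3 in the interaction against H3.3 WT, with median centring, residual factors or array weights. It moved from 3 to 1 in saline H3.3Q5A vs. empty without the gene filter, with median centring or with the read total, and from 2 to 1 in the interaction against empty with median centring.

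With each rat left out in turn, the Penk call in the contrast of H3.3Q5A and H3.3 WT under heroin stayed within 0.91 to 1.14 and was lost without H3.3 WT rat 1, 3, 9, 11 or 51 or H3.3Q5A rat 25, 26, 37, 39 or 43. Against heroin empty Penk stayed within 0.74 to 1.01 and was called without empty rat 2 or 21 or H3.3Q5A rat 21. Heroin vs. saline stayed within -0.98 to -0.71 with empty, called without saline rat 18 or heroin rat 2, and within -1.02 to -0.65 with H3.3 WT, called without saline rat 8. H3.3 WT vs. empty, uncalled, ran from -0.24 to 0.013 with heroin and from -0.31 to 0.071 with saline, and its interaction from -0.20 to 0.18. Oprk1 in H3.3Q5A vs. empty with heroin stayed within -0.41 to -0.32 and lost its call without empty rat 7, 14 or 16 or H3.3Q5A rat 25, 26, 39 or 43. Against the mean of the heroin controls it stayed within -0.35 to -0.28 and lost its call without these same 4 H3.3Q5A rats, and its interaction of heroin and H3.3 WT, uncalled, ran from -0.0022 to 0.11. Oprm1 ran from -0.084 to 0.068 in H3.3 WT vs. empty with heroin. Its mean heroin effect stayed within 0.22 to 0.29 and was called without saline empty rat 22 or 42, saline H3.3 WT rat 27, heroin empty rat 5 or 6 or heroin H3.3 WT rat 3. The count of named opioid system genes called ran from 0 to 3 in saline H3.3Q5A vs. empty, from 0 to 2 in heroin vs. saline with H3.3Q5A, and from 0 to 1 in the other contrasts where it changed, while it stayed at 2 in the interaction against empty.

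Over the other settings the calls among all tested genes ranged from 0 to 2322 (35 as reported) for heroin vs. saline with empty, 244 to 1862 (620) with H3.3 WT and 0 to 2412 (114) with H3.3Q5A. With heroin, H3.3Q5A gave 101 to 2388 (724) against empty and 0 to 2190 (611) against H3.3 WT, and with saline 618 to 3146 (1116) and 0 to 1292 (2). H3.3 WT vs. empty gave up to 195 with heroin and up to 1927 with saline (0 as reported for both). The interactions gave 2254 to 5327 (3149), 1371 to 3760 (1790) and 0 to 356 (0). No paired analysis applied, because the groups compared consisted of different rats, also where rat numbers recur between groups. Oprm1 had the fewest reads of the 3 members, and whether depth limited its calls was not tested.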

Other observations

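The saline library whose labels name both H3.3Q5A and H3.3 WT had an Oprk1 value of 9.39, inside the range of both saline groups. Its Penk value was 11.15, below 6 of 7 saline H3.3 WT rats and below 6 of 7 saline H3.3Q5A rats.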
